A study of Homo sapiens with 6 samples.

Results

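The windows described here are the 194 of 53603 start-site windows that the deposited count table labels snoRNA, chosen by that label alone. Each window spans 400 bp, from 150 bp before to 250 bp after an annotated start site, so for a short small nucleolar RNA (snoRNA) gene it covers the whole gene and its flanks. The cells were HEK293T, an established line of human embryonic kidney origin, in which small RNA was sequenced after 48 h with 150 nM of either a control siRNA (siControl, 3 libraries) or an siRNA directed at La (siLa, 3 libraries), the protein product of SSB. Both arms received siRNA, and the series describes the 3 libraries of each arm as biological replicates. RNA was treated with a phosphatase and then with a polynucleotide kinase before library making, so RNAs with different ends could enter. The question put to the data was how loss of La changes small RNA read at promoters.

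SnoRNAs are stable nuclear RNAs that pair with other RNAs and guide their chemical modification. Box C/D snoRNAs (symbols SNORD) guide ribose methylation by fibrillarin, and box H/ACA snoRNAs (symbols SNORA) guide the conversion of uridine to pseudouridine by dyskerin. Small Cajal body RNAs (scaRNAs) do the same for spliceosomal RNAs. U3 (SNORD3 genes) and U8 (SNORD118) act in cleavage of ribosomal RNA precursors, and U13 (SNORD13) helps to guide acetylation of small-subunit ribosomal RNA. Most human snoRNAs are cut out of introns of host genes made by RNA polymerase II, whereas U3, U8 and U13 have promoters of their own. La binds the uridine-rich 3′ ends of new RNA polymerase III transcripts, and the yeast La protein also binds 3′-extended U3 precursors.

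A selection of short box C/D genes, from windows among the 10 most read or among those with the lowest or highest fitted fold changes, is shown 5′ to 3′ as GENCODE release 29 transcripts on GRCh38. Capitals mark the C box letters TGATGA within the first 20 bases and the D box letters CTGA within the last 20 bases, searched on the transcript strand. They are SNORD58A (chr18:49491283-49491347, minus strand), SNORD2 (chr3:186784796-186784864, plus), SNORD59A (chr12:56645027-56645101, minus), SNORD25 (chr11:62855564-62855632, minus), SNORD41 (chr19:12706449-12706518, minus), SNORD45C (chr1:75787072-75787150, plus) and SNORD83B (chr22:39313819-39313911, minus).
SNORD58A: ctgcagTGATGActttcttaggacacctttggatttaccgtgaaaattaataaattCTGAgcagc
SNORD2: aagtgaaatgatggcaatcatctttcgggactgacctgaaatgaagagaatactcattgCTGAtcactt
SNORD59A: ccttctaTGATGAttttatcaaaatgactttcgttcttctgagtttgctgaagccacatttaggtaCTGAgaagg
SNORD25: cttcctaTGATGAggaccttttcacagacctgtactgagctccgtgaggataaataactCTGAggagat
SNORD41: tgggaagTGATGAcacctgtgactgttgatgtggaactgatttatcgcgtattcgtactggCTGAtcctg
SNORD45C: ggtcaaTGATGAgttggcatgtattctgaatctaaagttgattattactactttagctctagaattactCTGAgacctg
SNORD83B: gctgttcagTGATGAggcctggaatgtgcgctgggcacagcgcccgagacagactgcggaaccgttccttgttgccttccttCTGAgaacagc
SNORD2 holds the D box letters but not the exact C box letters in its first 20 bases. Among the 29 box C/D windows that were tested and have a sequence, 29 (100%) held CTGA near the 3′ end and 16 (55.2%) held TGATGA near the 5′ end. Of 205123 GENCODE transcripts of at least 80 bases, 9.31% held the former and 0.524% the latter in the same places.

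The box H/ACA genes are longer. The most read, SNORA64 (chr16:1962973-1963106, minus), the next, SNORA61 (chr1:28579764-28579893, minus), and SNORA13 (chr5:112161485-112161617, plus), whose level was closest between the arms, are shown with the letters ACA that stand 3 bases before the end in capitals.
SNORA64: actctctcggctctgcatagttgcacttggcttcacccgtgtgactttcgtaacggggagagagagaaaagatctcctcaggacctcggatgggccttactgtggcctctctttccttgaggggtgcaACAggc
SNORA61: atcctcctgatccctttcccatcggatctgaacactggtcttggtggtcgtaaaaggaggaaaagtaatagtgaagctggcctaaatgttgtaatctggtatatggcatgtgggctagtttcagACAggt
SNORA13: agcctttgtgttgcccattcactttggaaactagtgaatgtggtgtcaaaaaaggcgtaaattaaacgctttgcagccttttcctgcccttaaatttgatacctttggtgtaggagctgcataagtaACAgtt
ACA stood at this place in 17 of the 19 tested box H/ACA genes (89.5%) and in 2.38% of all transcripts. The H box letters ANANNA lay within bases 51 to 80 of 18 of the 19 (94.7%), beside 26.9% of all transcripts. These are matches of letters and describe the families only.

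By position, 181 of the 194 windows took a name from the RefSeq gene table and 6 more from GENCODE, while 7 held no annotated small RNA gene by an overlap of at least 20 bp. By symbol, 49 were box C/D, 31 box H/ACA and 4 scaRNA windows, and 110 had no symbol that gives a family. A further split by place put 85 windows in an intron of a gene on the same strand and 15 over an exon of a GENCODE basic transcript. Another 38 lay inside a long gene with no host on the same strand, and 49 lay outside long genes. The 85 intronic windows held 76.4% of all 2096924 counts in snoRNA windows, the 15 exonic windows held 14.5%, and the 49 outside long genes held 2.69%. Of 573 RefSeq snoRNA and scaRNA genes counted, 84 lay in a window labelled snoRNA and 4 only in a window of another label. The other 485 lay in none, so most of these 573 genes were outside the table. This count does not cover the 96 windows that took a LOC symbol. No snoRNA window overlapped a window of another label.

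Reads were spread very unevenly. Of the 194 windows, 117 (60.3%) had a read in any library and 77 had none, beside 40.7% with a read among all 53603 windows. A window with 0 of the 20487812 counts of all 6 libraries could still have a level of up to 0.146 CPM (counts relative to library size; all other CPM values here use library sizes corrected by TMM factors), an upper limit of 3 counts that covers counting error only. The windows with no read included all 6 on chromosome 15 and all 4 on chromosome 21. The 4 windows of SNHG14, the imprinted host of the SNORD115 and SNORD116 clusters, were among these. At the other end, 6 windows held 100000 counts or more over the 6 libraries, and 16 held at least 10000 but fewer. The 110 windows with no family symbol included 68 of the 77 with no read. Of these 194 windows, 61 (31.4%) passed the filter on low counts and were tested for a difference between the arms, beside 1.985% of all windows. These 61 held 99.97% of the counts in snoRNA windows, and the least read of them, LOC124904154, had 78 counts in all, while the most read outside them, SNORD3P3, had 50.

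**Figure D1:**
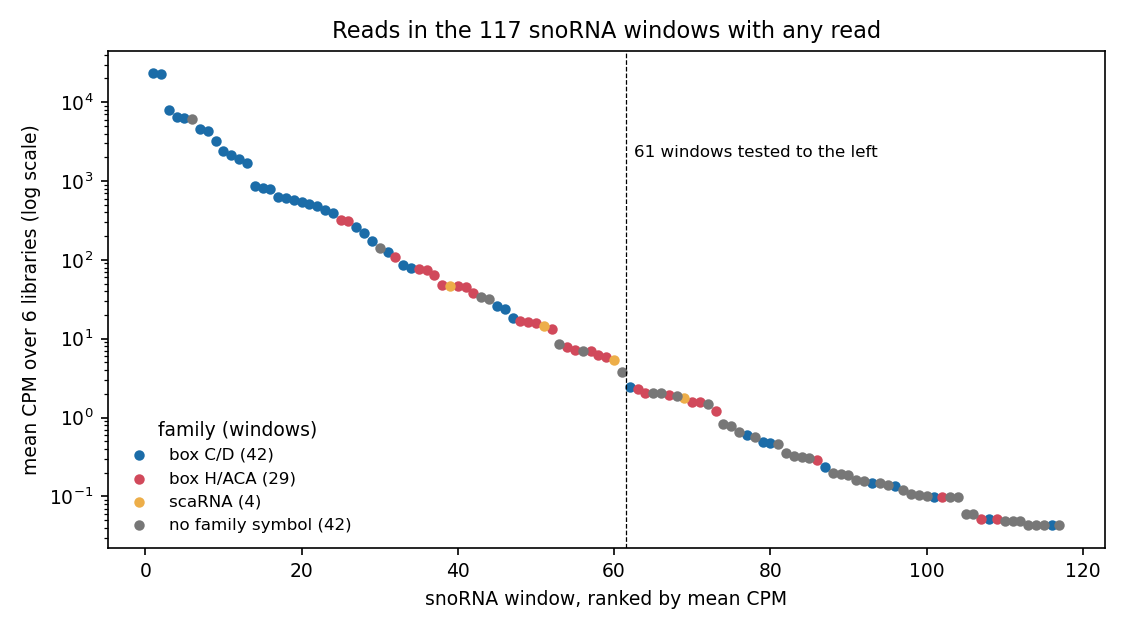
Mean CPM over the 6 libraries, on a log axis, of each of the 117 snoRNA windows with any read, ranked along the x axis and coloured by family. Box C/D windows fill most of the top ranks, and the 10 most read windows held 85.4% of the counts.

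The single most read window, that of SNORD58A, held 22.7% of the counts in snoRNA windows, and with SNORD2 the share was 44.8%. The 5 most read held 65.1%, the 10 most read 85.4% and the 20 most read 95.7%. Box C/D windows held 92.4% of the counts, box H/ACA windows 1.23% and scaRNA windows 0.0677%. Because every window is 400 bp long, these counts are per window of equal length and not per length of the RNA. Among tested windows the median of mean CPM was 618 for box C/D and 37.7 for box H/ACA, and the median gene length was 78 and 133 bases. Over the 59 tested windows with a named gene, Spearman's rho between gene length and mean CPM was -0.47. Within the 32 tested box C/D windows it was -0.39 and within the 19 box H/ACA windows it was 0.22. These windows share the libraries and the small RNA purification, so the values are descriptions.

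**Figure D2:**
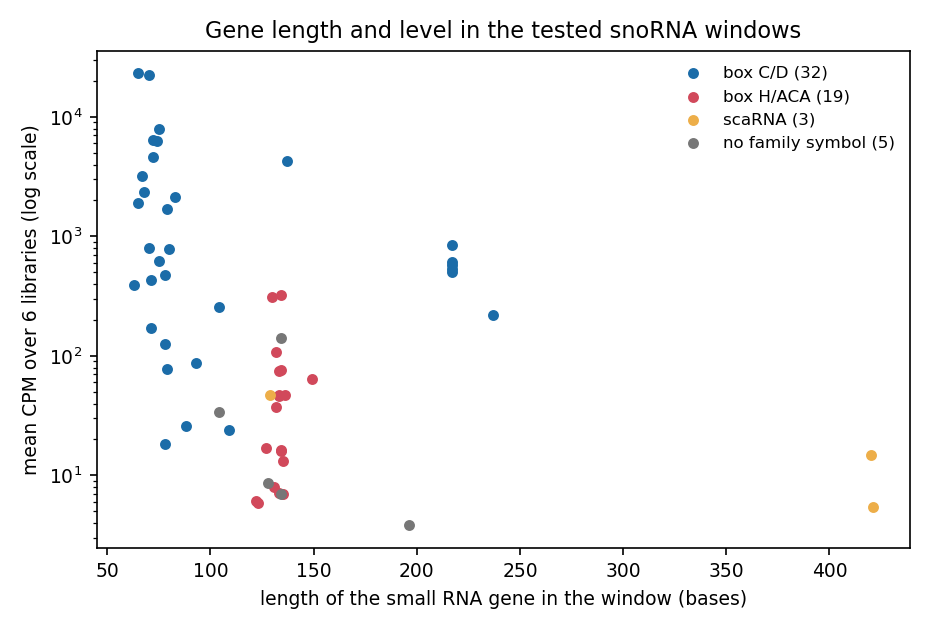
Length in bases of the small RNA gene against mean CPM over the 6 libraries, on a log axis, for the tested snoRNA windows with a named gene, coloured by family. The 5 most read windows hold genes of 65 to 75 bases, and the box H/ACA genes, of 122 to 149 bases, lie lower.

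Several of the most read windows lay in the same host gene. SNHG1, a noncoding host whose introns carry a row of box C/D genes, held SNORD27, SNORD25 and SNORD31, with 209701 counts or 10.0% of all in snoRNA windows. GAS5, a noncoding host of the same kind, held SNORD74 and SNORD78, with 8.19%. EIF4A2, which encodes a translation initiation helicase, held SNORD2 and SNORA63B with 464567 counts, of which SNORD2 had 464524. One of the 10 most read windows, at chr1:173867738-173868137, held no annotated small RNA gene by the overlap rule. It shared 163 bases with the SNORD74 window and held 8 bases of SNORD74, and its counts followed those of SNORD74 in each library. In siControl replicates 1 to 3 it had 41343, 17717 and 20226 counts where SNORD74 had 41849, 19188 and 20775. Reads in the shared stretch may be counted in both windows, so the pair was not taken as separate evidence. Both are included in the sums given here.

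The start windows of the host genes themselves carried few reads. The tested snoRNA windows had 48 hosts, of which 28 had a start window in the table. Their 46 start windows had 981 counts in all, with a median of 6 and a highest of 385 at RACK1. The snoRNA windows within those hosts had 1905671. The 4 RefSeq genes found only under another label lay in protein-coding or lncRNA start windows. The best read was SNORD32A, in the start window of the ribosomal protein gene RPL13A. That window had 5594, 3105 and 2182 counts with siControl and 1750, 912 and 2705 with siLa (log2 fold change -0.75, edgeR adjusted p = 0.280).

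The whole set of libraries had 3066299 to 4105806 counts each over all windows. The labels could not be checked against SSB, whose better read start window had 4, 3 and 3 counts with siControl and 1, 0 and 0 with siLa. SnoRNA windows took 13.6%, 11.5% and 9.29% of the counts in siControl replicates 1 to 3 and 8.11%, 5.89% and 12.3% in siLa replicates 1 to 3. La knockdown replicate 3 lay inside the control range, so the arms overlapped. The means were 11.5% ± 2.17 and 8.76% ± 3.25 (SD, n = 3 each, two-sided exact permutation p = 0.3, adjusted over 6 comparisons 0.96; the smallest possible p is 0.1). In bulk RNA, fewer cells that make an RNA and less RNA per cell cannot be told apart. rRNA windows, the most read label, took 34.3%, 39.9% and 44.0% of counts with siControl and 46.7%, 54.5% and 40.6% with siLa. The highest rRNA share and the lowest snoRNA share were those of La knockdown replicate 2, and the lowest rRNA share and the highest snoRNA share were those of control replicate 1. The part of rRNA in the snoRNA difference was not tested. As a share of counts outside the windows labelled rRNA, snoRNA windows held a mean of 18.8% with siControl and 16.3% with siLa (exact permutation p = 0.4). With the 5S and pre-45S rRNA labels also left out of the denominator, the means were 25.5% and 24.6% (exact permutation p = 0.8).

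The families showed the same overlap of the arms. Box C/D windows together had 133050, 104490 and 77456 CPM with siControl and 82886, 54826 and 112550 with siLa. Their means were 105000 ± 27800 and 83420 ± 28865 CPM (SD, n = 3 each, exact permutation p = 0.5, adjusted 0.96). Box H/ACA windows had 1857, 1176 and 968 CPM with siControl and 1103, 1148 and 1240 with siLa (exact permutation p = 0.8, adjusted 0.96). Control replicate 1 stood highest in both families, and all 3 La knockdown libraries lay within the control range for box H/ACA. ScaRNA windows had 87.7, 60.3 and 62.2 CPM against 70.6, 76.9 and 57.3 (exact permutation p = 0.8, adjusted 0.96). The number of snoRNA windows with a read was 89, 92 and 89 with siControl and 89, 95 and 89 with siLa (exact permutation p = 1, adjusted 1). The 5 most read windows held 65.3% ± 1.41 of snoRNA counts with siControl and 64.5% ± 3.16 with siLa (SD, n = 3, exact permutation p = 0.8, adjusted 0.96).

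**Figure D3:**
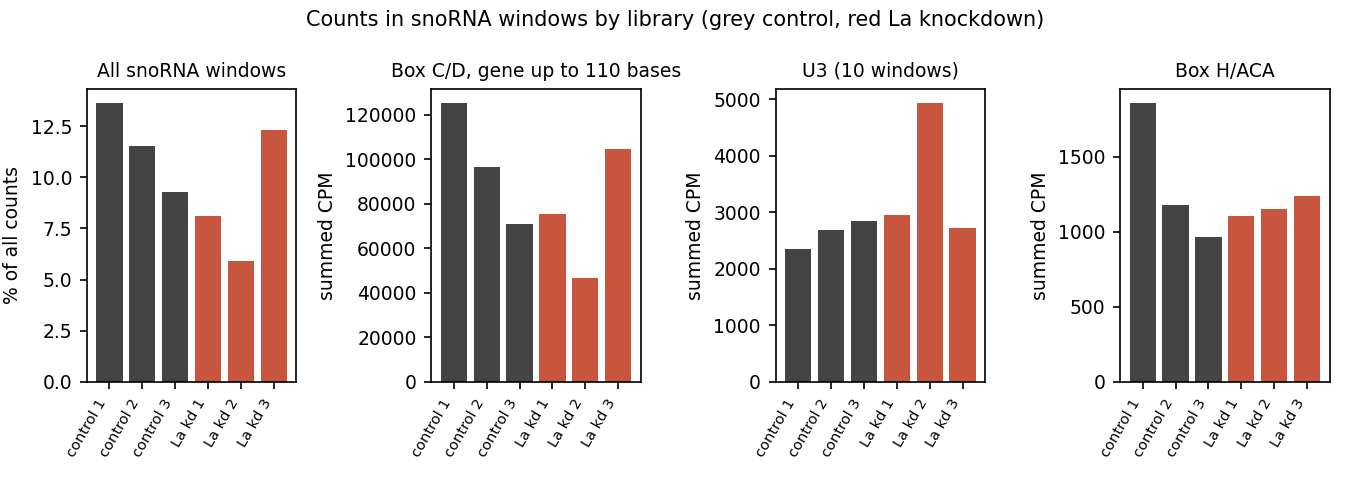
Counts in snoRNA windows in each of the 6 libraries, as a percentage of all counts and as summed CPM for windows of box C/D genes up to 110 bases, of 10 U3 genes and of box H/ACA genes, with bars from 0, control in grey and La knockdown in red. For all snoRNA windows the control libraries range from 9.29% to 13.6% and the La knockdown libraries from 5.89% to 12.3%.

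No snoRNA window passed edgeR's quasi-likelihood test at a Benjamini-Hochberg adjusted p under 0.05 in either direction, with 0 of 61 lower and 0 of 61 higher in the La knockdown arm. Over all 1064 tested windows, 4.79% were lower and 0.658% were higher. The lowest adjusted p among the snoRNA windows was 0.157 (SNORD83B) and the highest 0.968 (SNORA13). At an unadjusted p under 0.05, 2 were lower (SNORD45C, SNORD13) and 1 was higher (SNORD83B), beside 14.2% and 9.68% of all tested windows. With 2 of 61 (3.28%) lower and 1 of 61 (1.64%) higher, both shares were below the background. Of the 61, 37 (60.7%) had a fitted log2 fold change below 0, beside 53.2% of all tested windows, and the median was -0.15 beside -0.05. Without control replicate 1 the median was 0.0028, and with upper quartile scaling it was 0.17 while that of all tested windows moved to 0.26. The fold changes ran from -1.18 to 1.16, with a median standard error of 0.34. Even the largest of them did not pass the threshold. A difference of the size of that error, and some well above it, could thus be missed by this fit. Under other filters and with a replicate block some of these windows passed, as given below. The arms' CPM ranges did not overlap for 2 windows that were lower (among them a window at chr1:206345559-206345958 with no annotated small RNA gene), beside 17.9% of all tested windows, and for 3 that were higher (SNORD3A, SNORD50B and SNORD83B), beside 14.1%.

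**Figure D4:**
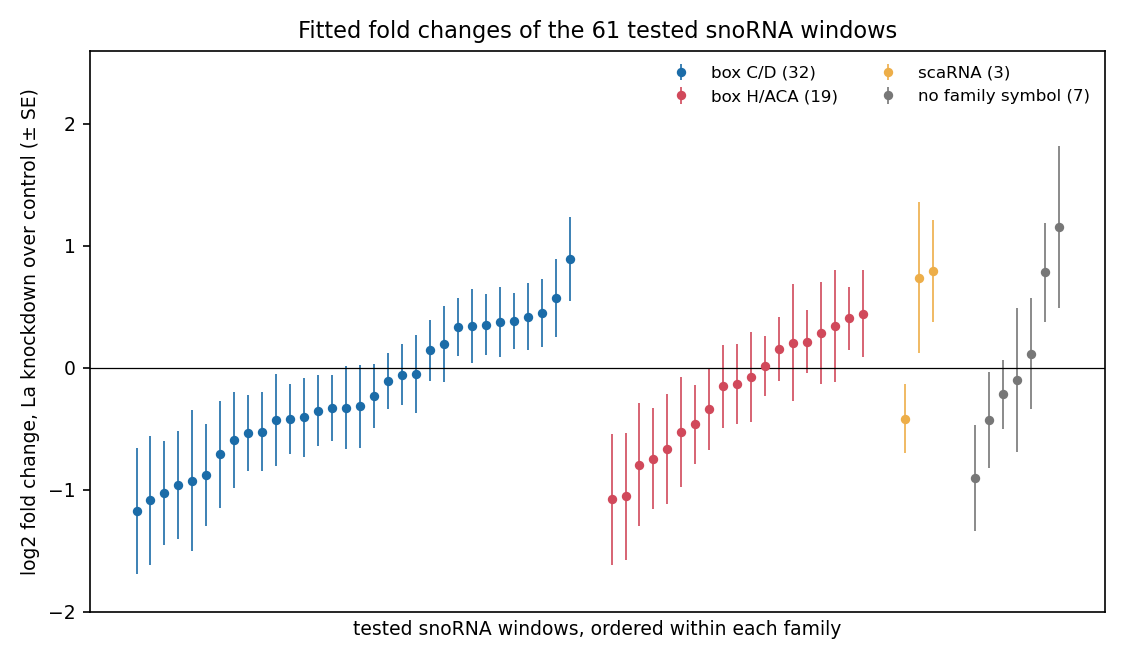
Fitted log2 fold change, La knockdown over control, with its standard error, for each of the 61 tested snoRNA windows, ordered within families. Box C/D windows run from -1.18 to 0.90 and none of the 61 passed the adjusted threshold.

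Among the most read windows, the guide snoRNAs in introns of protein-coding hosts had overlapping arms. SNORD58A, in an intron of the ribosomal protein gene RPL17, had 33848, 26271 and 17250 CPM with siControl and 21214, 11580 and 28922 with siLa (log2 fold change -0.33, SE 0.34, edgeR adjusted p = 0.526). SNORD2, in EIF4A2, had 30556, 27022 and 19730 CPM against 16996, 13224 and 27615 (-0.42, SE 0.29, edgeR adjusted p = 0.352). In both, La knockdown replicate 3 was within the control range, and La knockdown replicate 2 was the lowest library. SNORD59A, in the ATP synthase beta subunit gene ATP5F1B, had 8673, 8100 and 7593 CPM against 9344, 5188 and 8919, and its fold change was among the 3 nearest to 0 (-0.06, edgeR adjusted p = 0.887). The control and La knockdown ranges of SNORD59A overlapped.

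Genes within 1 host had different fitted fold changes, and no difference between them was tested. In SNHG1, SNORD27 had 6594, 5355 and 3719 CPM with siControl and 3799, 2407 and 5638 with siLa (-0.40, edgeR adjusted p = 0.406). SNORD25 had 6760, 3692 and 2144 CPM against 1803, 1266 and 3409 (-0.96, SE 0.44, edgeR adjusted p = 0.212). SNORD31 had 3076, 2324 and 1856 CPM against 2223, 1422 and 3366 (-0.05, edgeR adjusted p = 0.921). The fitted fold changes of these 3 neighbours thus ran from -0.96 to -0.05, with overlapping arms in each. In GAS5, SNORD74 had 10924, 5673 and 5385 CPM against 4957, 3118 and 8298 (-0.42, edgeR adjusted p = 0.448), and SNORD78 had 2055, 1933 and 1969 against 2006, 1381 and 2154 (-0.10, edgeR adjusted p = 0.771).

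The 5 windows named here had the most negative fitted fold changes, all with control replicate 1 as the highest library and with overlapping arms. SNORD13 (U13), at chr8:33513325-33513724 inside a long gene but with no host on its strand, had 635, 303 and 134 CPM with siControl and 154, 88.1 and 232 with siLa (-1.18, SE 0.52, edgeR adjusted p = 0.198). SNORD41, in an intron of the nuclear import receptor gene TNPO2, had 1921, 902 and 460 CPM against 463, 242 and 841 (-1.09, SE 0.53, edgeR adjusted p = 0.233). SNORD45C, in the Rab prenylation enzyme gene RABGGTB, had 1065, 562 and 291 CPM against 256, 264 and 422 (-1.03, SE 0.42, edgeR adjusted p = 0.176). The spread within the control arm was wide in all 3, and control replicate 1 stood well above every other library in each. Without it, the fold change of SNORD13 was -0.47. SNORA57, in CSKMT, a mitochondrial methyltransferase gene, had 150, 70.4 and 38.9 CPM against 44.8, 17.97 and 62.1 (-1.05, edgeR adjusted p = 0.234). SNORA31B, over an exon of TPT1, had 38.4, 14.2 and 12.4 CPM against 10.4, 4.42 and 16.1 (-1.08, edgeR adjusted p = 0.236). Under a filter that kept every window with a read, SNORD13 (-1.42, adjusted p = 0.000617), SNORD41 (-1.32, 0.00106), SNORD45C (-1.28, 0.00285), SNORD25 (-1.20, 0.00424) and SNORA57 (-1.30, 0.0119) passed edgeR's threshold. These were 5 of 117 snoRNA windows in that fit, beside 104 of all 21830 windows called lower. In the authors' deposited table, 2 of the 194 snoRNA windows were called lower, SNORD13 (log2 fold change -1.38, adjusted p = 0.00412) and SNORD25 (-1.16, adjusted p = 0.0432), and 0 higher, beside 0.149% and 0.00373% of all windows there.

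**Figure D5:**
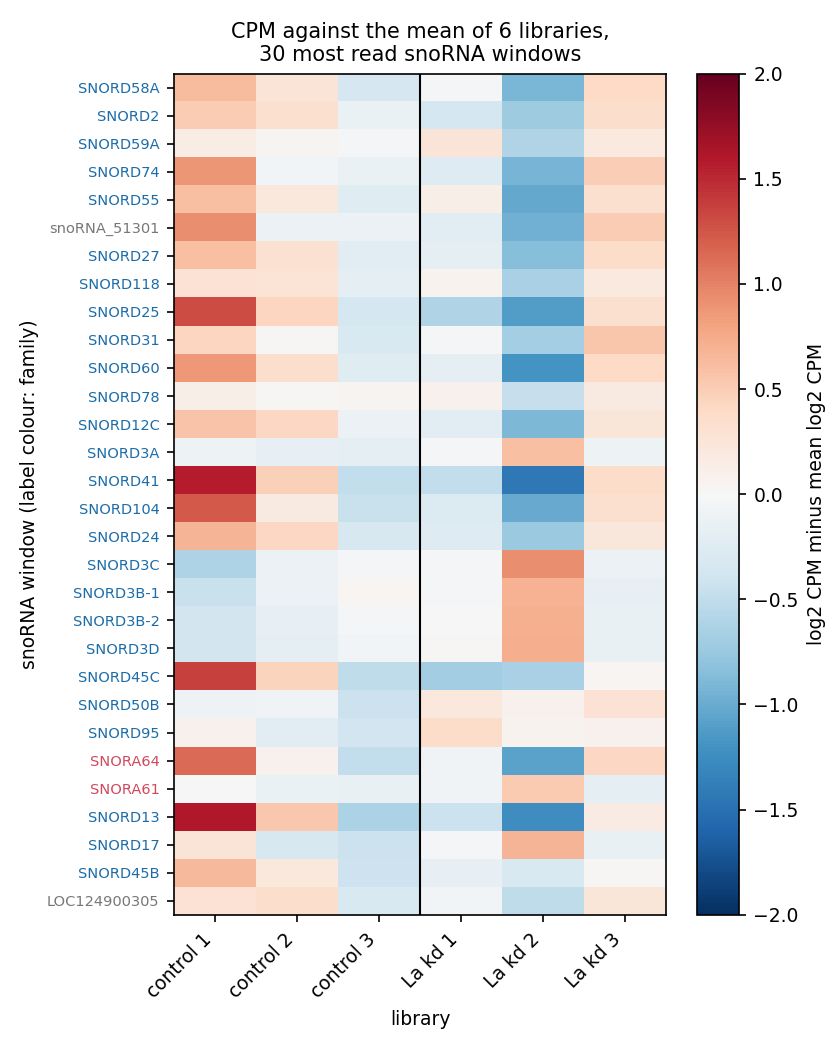
log2 CPM of the 30 most read snoRNA windows minus each window's mean over the 6 libraries, by library, with the line dividing control from La knockdown libraries. Among all 61 tested windows, control replicate 1 was the highest library for 31 and La knockdown replicate 2 the lowest for 27, and the U3 windows are high in La knockdown replicate 2.

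Fitted fold changes of the U3 windows were above 0 and those of most short box C/D windows below it, a contrast that was not tested. The split of box C/D genes at 110 bases, with U3 set apart, was not planned. It leaves the longer SNORD118 (-0.23) and SNORD17 (0.35) out of both groups. The 5 full-length U3 genes lie within 128.63 kb of chromosome 17 and have promoters of their own. SNORD3A had 775, 744 and 727 CPM with siControl and 826, 1269 and 777 with siLa (0.36, SE 0.25, edgeR adjusted p = 0.364). Every La knockdown library was above every control library, but the lowest siLa value (776.5) barely exceeded the highest siControl value (775.2). The ranges were compared in TMM-scaled CPM alone. SNORD3C had 376, 530 and 565 CPM against 559, 1097 and 532 (0.57, edgeR adjusted p = 0.269). SNORD3B-1, SNORD3B-2 and SNORD3D had fitted fold changes of 0.38, 0.42 and 0.45, with edgeR adjusted p of 0.393, 0.324 and 0.301. La knockdown replicate 2 was the highest library for all 5, and control replicate 1 was the lowest for 4 of them. Summed over 10 U3 windows, the control libraries had 2346, 2687 and 2843 CPM and the La knockdown libraries 2952, 4934 and 2715, so the arms overlapped. By comparison, 36 windows of box C/D genes up to 110 bases had 125300, 96564 and 70745 CPM against 75340, 46886 and 104820. Among the 25 of these that were tested, control replicate 1 was the highest library for 17 and La knockdown replicate 2 the lowest for 16, and 20 had a fold change below 0 (median -0.40). All 5 tested U3 windows were above 0 (median 0.42), also under every scaling run. As near-identical copies that may share reads, they were not taken as 5 separate pieces of evidence. Their median was 0.15 with no filter, and in the authors' deposited table their fold changes ran from 0.060 (SNORD3A) to 0.26 (SNORD3C). Without La knockdown replicate 2 the U3 median was 0.096, and without control replicate 1 the median of the short box C/D windows was -0.096 (-0.081 with upper quartile scaling). Among all 1064 tested windows, control replicate 1 was the highest library for 378 and La knockdown replicate 2 the lowest for 376.

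The U3 copies are nearly the same in sequence, so reads cannot be assigned to 1 of them with certainty. SNORD3A (chr17:19188016-19188232, plus) is shown as the copy to which the others are compared.
SNORD3A: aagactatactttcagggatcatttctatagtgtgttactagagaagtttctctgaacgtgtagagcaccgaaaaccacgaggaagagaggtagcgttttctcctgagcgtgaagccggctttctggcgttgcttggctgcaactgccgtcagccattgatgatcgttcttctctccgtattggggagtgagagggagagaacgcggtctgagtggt
Counted from 1 at the 5′ end, SNORD3C differed from it by G108A, SNORD3B-1 and SNORD3B-2 each by A78C, and SNORD3D by A4G, C53T and A78C and by 1 more base at its 3′ end. In all, 19 windows belonged to the U3 family, and 15 of them had a read. The 11 copies with a sequence other than these 5 were 65.6% to 83.5% identical to SNORD3A, and the best read of them, LOC124904154, had 78 counts.

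U8 had 1 dominant gene and 4 copies. SNORD118 (chr17:8173454-8173587, minus) had 5152, 5067 and 3711 CPM with siControl and 4386, 2668 and 4818 with siLa (-0.23, SE 0.26, edgeR adjusted p = 0.561), and the arms overlapped. Its window lies over an exon of TMEM107, and since the use of strand is not given, reads of overlapping genes cannot be told apart. It held 87778 counts, against 2870 in that of LOC124900305 (chr11:123301390-123301523, plus). The copy is shown with capitals at the bases that were not matched to SNORD118 in the alignment, which left 89.6% identical (121 of 135 aligned positions).
SNORD118: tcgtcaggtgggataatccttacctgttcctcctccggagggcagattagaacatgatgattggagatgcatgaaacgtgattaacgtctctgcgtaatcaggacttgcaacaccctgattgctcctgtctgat
LOC124900305: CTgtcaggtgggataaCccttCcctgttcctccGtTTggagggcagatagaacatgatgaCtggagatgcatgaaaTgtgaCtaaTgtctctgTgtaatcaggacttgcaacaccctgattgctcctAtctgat
The other 3 copies had 174, 143 and 3 counts. Reads of SNORD118 that match a copy could be placed there, since how reads with several positions were handled is not given in the sources used here. One of the copies, LOC124900277 on chromosome 9, had the largest positive fitted fold change. It had 9, 21 and 18 counts with siControl and 15, 71 and 9 with siLa (1.16, SE 0.66, edgeR adjusted p = 0.278), and without La knockdown replicate 2 the fold change was -0.12.

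The other windows with positive fold changes were of modest level. SNORD83B, in an intron of the ribosomal protein gene RPL3, had 51.9, 60.9 and 69.2 CPM with siControl and 88.2, 179 and 71.8 with siLa (0.90, SE 0.34, edgeR adjusted p = 0.157). Its arms did not overlap in TMM-scaled CPM, with the lowest siLa library (71.8) close above the highest siControl library (69.2). Of the settings run, it passed the threshold with upper quartile scaling alone (1.21, edgeR adjusted p = 0.04997). Under that scaling 58 of all 1064 tested windows were called higher. SCARNA2 had 42, 42 and 34 counts against 74, 72 and 26 (0.79, edgeR adjusted p = 0.252). LOC124900236, on chromosome 7, had 91, 111 and 71 counts against 78, 243 and 93 (0.79, edgeR adjusted p = 0.245), and SCARNA17, at 1 of its 2 windows, had 14, 6 and 26 against 19, 40 and 6 (0.74, edgeR adjusted p = 0.423). For these last 3 windows the arms overlapped.

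Of the other windows whose arms did not overlap, SNORD50B and the unannotated window on chromosome 1 are given here. SNORD50B, in SNHG5, a noncoding host, had 397, 406 and 314 CPM with siControl and 490, 451 and 519 with siLa (0.39, SE 0.23, edgeR adjusted p = 0.284). The window on chromosome 1 with no annotated small RNA gene had 52.2, 33.1 and 40.7 CPM against 33.0, 8.54 and 26.1 (-0.90, edgeR adjusted p = 0.226), and its highest siLa library was just under its lowest siControl library. Below the 10 most read windows, SNORD60 in SNHG19 (44101 counts, log2 fold change -0.59), SNORD12C in ZFAS1 (34909 counts, -0.53), SNORD104 in SNHG25 (16513 counts, -0.71) and SNORD24 in the ribosomal protein gene RPL7A (12930 counts, -0.52) had edgeR adjusted p of 0.338, 0.282, 0.304 and 0.306. SNORD95, in the ribosomal scaffold gene RACK1, and SNORD17, a long box C/D gene in SNX5, had fold changes of 0.33 and 0.35 (edgeR adjusted p = 0.370 and 0.444). By place, the median fold change on the log2 scale was -0.23 for the 38 tested intronic windows with 24 below 0, -0.29 for the 12 exonic windows with 8 below 0, and 0.40 for the 8 outside long genes, 4 of them U3, with 2 below 0. With upper quartile scaling the intronic and exonic medians were above 0, at 0.093 and 0.041, and without La knockdown replicate 2 the median outside long genes was 0.064.

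Box H/ACA windows had fitted fold changes on both sides of 0, with 11 of the 19 tested below it and a median of -0.13, which was 0.19 with upper quartile scaling and 0.076 without control replicate 1. SNORA64, in the ribosomal protein gene RPS2, had 636, 307 and 206 CPM with siControl and 275, 138 and 386 with siLa (-0.52, edgeR adjusted p = 0.437). SNORA61, in SNHG12, had 311, 281 and 281 CPM against 295, 445 and 273 (0.22, edgeR adjusted p = 0.578). SNORA44, in the same host, had 186, 99.3 and 79.1 CPM against 83.2, 113 and 91.7 (-0.34, edgeR adjusted p = 0.489). SNORA13, in EPB41L4A-AS1, had 45.9, 48.5 and 45.6 CPM against 39.4, 46.5 and 55.4 (0.02, edgeR adjusted p = 0.968). Each of these 4 had overlapping arms.

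Start windows of 23 genes for snoRNP proteins and assembly factors, among them fibrillarin (FBL) and dyskerin (DKC1), were few in reads. Their 34 windows had 239 counts in all, and 1 was tested, NOP56, which encodes a core box C/D protein (log2 fold change 0.86, edgeR adjusted p = 0.298). Of 56 listed snoRNA host genes, 40 had a start window, with 70 windows, the window shared by SNHG3 and RCC1 being counted for each. Of these, 5 were tested and 0 called in either direction, beside 4.79% lower and 0.658% higher of all 1064 tested windows. With 5 tested windows, 0 calls cannot be told from those shares. Most counts of this list, 16248, were in the RPL13A window that holds SNORD32A.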

How the data were processed

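Small RNA was read from 3 control and 3 La knockdown libraries. The authors deposited raw read counts per window, per the file headers, and a table with log2 fold changes, log2 CPM, an F statistic used here as a score, and p-values (unadjusted and adjusted), which the authors computed. Per the submitters' processing notes, Trim Galore, Bowtie2, bedtools, edgeR and GRCh38 (hg38) were used. Tool versions, strand use and how multi-mapped reads were treated are not given in the sources used here.

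Window starts were shifted by 1 to be 1-based. Genes were taken from RefSeq GRCh38.p14 and GENCODE release 29 by an overlap of at least 20 bp. Counts were tested with edgeR 4.0.16 in R 4.3.3 (filterByExpr defaults, TMM factors, quasi-likelihood, arm as the single term) on all 1064 windows left by the filter, with Benjamini-Hochberg adjustment and a threshold of 0.05. The fit was tested on simulated data in which 200 windows were changed by more than any snoRNA fold change given here. That run does not bear on smaller changes. Standard errors came from the fold change and the F statistic, and CPM are TMM-scaled. Single values per library were compared by exact permutation tests. Alternatives were DESeq2 1.42.0, other scalings, filters and dispersions, a replicate block and leaving out each library. Figures were drawn with matplotlib 3.10.9.

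Named windows were the U3, U8 and U13 genes, the 10 most read, the 5 largest and 5 smallest fold changes, the 3 nearest to 0 and any window that passed the threshold, plus SSB. Other windows named in the text were chosen after their values were seen. Members, lists and rule were chosen with earlier results of these data known. No column of per-sample values was left unused. The separate results of 2 windows are not reported here.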

Additional observations from a re-analysis of the deposited data

How the results depend on the processing

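No snoRNA window was called lower or higher with RLE factors, library size alone, TMM factors without snoRNA windows (chosen after seeing the data), DESeq2, robust dispersion, a filter on a mean of 20 counts, identical windows merged, or with any library left out. The runs with a library left out had fewer libraries to detect a difference. Without La knockdown replicate 1, 0 of all 1121 tested windows were called, so that run says nothing about snoRNA windows in particular. No filter and a filter of at least 5 counts in all libraries each gave 5 windows called lower (SNORD13, SNORD41, SNORD45C, SNORD25 and SNORA57). With no filter these were 5 of 117 snoRNA windows, beside 104 of all 21830. With the filter of at least 5 counts they were 5 of 87, beside 99 of all 6157. Upper quartile factors gave 1 of 61 called higher (SNORD83B, 1.21), beside 58 of all 1064. The replicate block gave 3 of 61 called lower, SNORD41 (-1.09), SNORD25 (-0.97) and SNORD13 (-1.06), beside 88 of all 1064. The replicate numbers were not shown to pair libraries, since deviations of same-numbered libraries correlated at 0.147, 0.235 and -0.468. The cause of these changes was not tested.

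The median log2 fold change, -0.15, fell to -0.37 when control replicate 3 was left out, was 0.0028 when control replicate 1 was, and was 0.17 with upper quartile factors, under which the median of all tested windows moved from -0.05 to 0.26. The difference in share of counts, La knockdown minus control, was -2.72 points and ran from -4.49 to -1.29 with 1 library left out, was -2.57 with windows labelled rRNA out of the denominator (chosen after seeing the data) and -0.847 with those labelled 5S and pre-45S rRNA out as well. For windows with a read it ran from -1 to 2, reversing without La knockdown replicate 2, and for the share of the 5 most read from -1.72 to 1.09, likewise. For summed CPM it ran from -36142 to -7280 (box C/D), from -353 to 91.6 (box H/ACA, above 0 without control replicate 1) and from -6.67 to 7.02 (scaRNA, above 0 at 7.02 without control replicate 1 and 3.69 without La knockdown replicate 3). With upper quartile factors the box H/ACA difference was 114 and the scaRNA difference 13.9, which was 11.8 without the most read scaRNA window under TMM factors.

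Of 286 alternative fold changes for the 26 named windows, over the scalings, DESeq2, the replicate block and the libraries left out but not the filters given above, 267 kept direction and side of the threshold, 4 newly passed it and 15 changed sign. SNORD118 reached 0.089 and 1 other of the 10 most read windows 0.012 with upper quartile factors. SNORD59A was 0.011 with RLE factors and with DESeq2, 0.27 with upper quartile factors and, with 1 library left out, at lowest -0.23 (La knockdown replicate 3 out) and at highest 0.15 (La knockdown replicate 2 out). SNORD31 was 0.020 with RLE factors and with DESeq2, 0.27 with upper quartile factors, 0.15 without control replicate 1 and, over libraries left out, at lowest -0.48 (La knockdown replicate 3 out) and at highest 0.19 (La knockdown replicate 2 out). The window beside SNORD74 ran from -0.94 to 0.0028 (without control replicate 1), LOC124900277 from -0.12 (La knockdown replicate 2 out) to 1.52, and SNORA13 was -0.056 with library size alone and ran from -0.19 (without La knockdown replicate 3) to 0.10. The 5 U3 windows, near-identical copies that may share reads, stayed above 0 under every alternative run on them. Leaving out snoRNA windows that overlap another label was not run, since there are 0.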
